A study of Mus musculus with 6 samples.

Results

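The 38 genes described here encode the contractile apparatus of skeletal muscle, and they were read in mouse mammary tumors. They were chosen by name from 22180 genes: probe sets naming 1 gene were used, and the brightest of them stood for its gene. All 38 had such a probe set, 41 in all. The tumors, labelled Trp53/Brca1-null and numbered 23, 24 and 25, arose in females of genotype Trp53L/L;Brca1L/L, several months after Ad-K8-Cre had been injected into the mammary ducts. Ad-K8-Cre is an adenovirus whose Cre recombinase is driven by a keratin 8 promoter, so that recombination is aimed at luminal cells. The K8wt group held YFP+ luminal epithelial cells, called wild type in the labels, that were sorted from the glands of 3 Rosa26-Stop-YFP females (mice 1, 2 and 4), 10 to 14 days after the same virus. Both groups had thus received Cre. Each group had 3 arrays, and each tumor had 1. Sorting is described for the K8wt cells alone, and whether any tumors shared a mouse is not stated, so p-values may in part measure the spread within an animal.

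Skeletal muscle contracts when myosin thick filaments pull on actin thin filaments within sarcomeres, the repeating units that end at Z-discs. Calcium released from the sarcoplasmic reticulum binds troponin on the thin filament and switches this on, and a calcium pump returns it to the reticulum. Fast and slow fibres build the same apparatus from different members of the myosin, troponin and calcium-handling families. Several slow fibre genes also serve the heart. Sorted mammary epithelium is not a tissue in which these genes are known to be abundant.

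The values are log2 RMA values: probe intensities corrected for background, brought to a common distribution over the arrays and summarised per probe set. A difference of 1 is a doubling. The mark for background was the 95th percentile of 1105 olfactory receptor genes, taken per array: 3.24, 3.45 and 3.41 in tumors 23, 24 and 25, and 3.70 to 3.86 on the K8wt arrays. Pearson's correlations across all genes were 0.933 to 0.955 among tumors and 0.939 to 0.966 among K8wt arrays, a description across genes, which are not independent replicates. The luminal keratin genes Krt8 and Krt18 lay far above the mark on all 6 arrays. Krt8 measured 9.41, 7.76 and 9.19 in tumors 23, 24 and 25, against 10.31, 11.08 and 11.12 in K8wt cells. The luminal keratin gene Krt19 measured 5.91, 4.83 and 2.05 in tumors 23, 24 and 25, against a K8wt mean of 8.62. In tumor 25 Krt19 thus lay under the mark.

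Tumor 23 carried the contractile genes at high levels, tumor 25 carried part of them at lower levels, and tumor 24 lay at the K8wt level. A gene was counted as above the K8wt range when the tumor array lay at least 1 log2 unit over the highest K8wt array. In tumor 23, 33 of the 38 genes did so, where 7.15% of all 22180 genes did. In tumor 25, 15 of 38 did so, where 8.99% of all genes did. In tumor 24 none did, where 5.81% of all genes did. With 1 array per tumor, these counts have no test. The median difference to the K8wt mean over the 38 genes was 3.76 (tumor 23), -0.11 (tumor 24) and 0.76 (tumor 25), beside -0.12, -0.14 and -0.11 over all genes. With each array centred on the mean of its housekeeping genes, the tumor 25 median turned to -0.094, while tumor 23 kept a median of 3.01. The tumor 25 count above the range was then 7. The housekeeping mean was 8.68 in tumor 25 and 7.67 to 7.97 on the K8wt arrays. The median difference of the housekeeping genes to their K8wt means was 1.12 in tumor 25. Over the background mark lay all 38 genes in tumor 23, 11 in tumor 24 and 30 in tumor 25, compared with 10 on each K8wt array. Of all genes, 60.7%, 57.7% and 57% did so in tumors 23, 24 and 25, and 50 to 53.8% on K8wt arrays. On all 3 K8wt arrays, 27 of the 38 lay under the mark. For such a gene a fold is given as at least the tumor value over the mean of the K8wt arrays' marks.

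**Figure D1:**
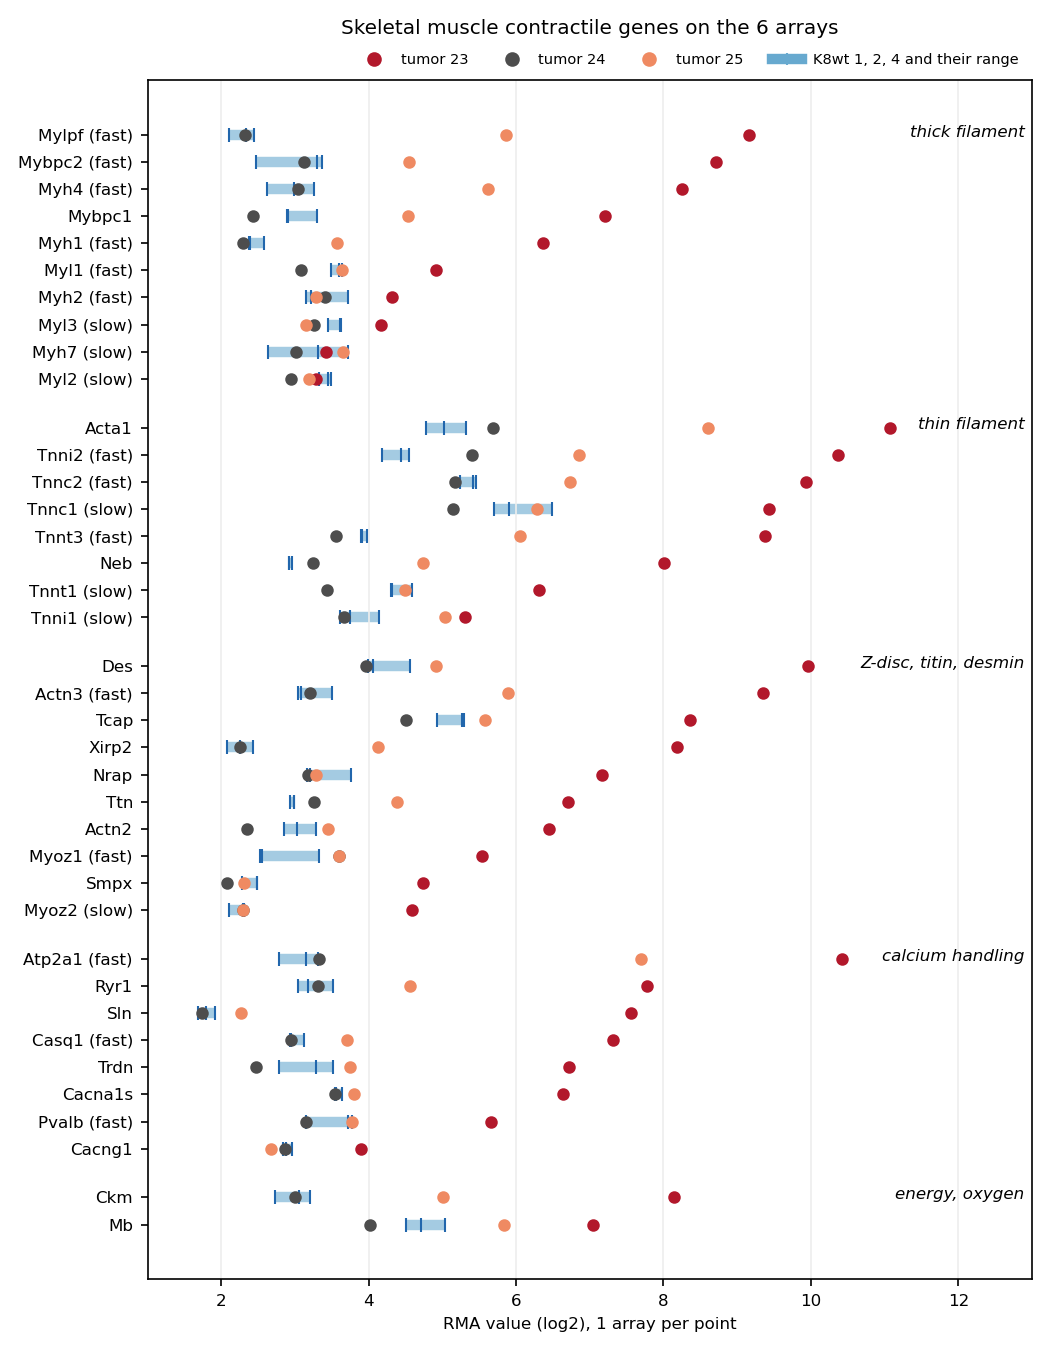
RMA value (log2) of each of the 38 genes on each array. Red, grey and orange points are tumors 23, 24 and 25 (1 array each), and the blue bar with ticks is the range of the 3 K8wt arrays. Tumor 23 is highest of the 6 arrays for 36 of these genes, beside 2864 of all 22180 genes. Tumor 25 usually lies next, and tumor 24 lies in or near the K8wt range.

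The order of the tumors was shared by most members. For 33 of the 38, tumor 23 was highest of the tumors, tumor 25 next and tumor 24 lowest, an order that 3975 of the 22180 genes had. Tumor 24 lay within the range of the K8wt arrays for 15 members, below it for 17 and above it for 6. Of all 22180 genes, tumor 24 lay within that range for 7197, below it for 9192 and above it for 5791. The SD over a group's arrays had a median over members of 2.20 for tumors and 0.21 for K8wt cells, beside 0.28 and 0.27 over all genes. The spread of the members among tumors was thus wide, and among K8wt arrays it was like that of other genes.

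The fast fibre calcium pump and light chain and skeletal actin were among the members with the largest differences. Atp2a1, the calcium pump of fast fibre reticulum, measured 10.43, 3.32 and 7.70 in tumors 23, 24 and 25, against 3.31, 3.15 and 2.78 in K8wt cells. Its K8wt values were under the mark, and the level was at least 101-fold higher in tumor 23 and at least 15.1-fold higher in tumor 25. On the log2 scale these bounds are 6.65 in tumor 23 and 3.92 in tumor 25, beside differences of the RMA values of 7.35 and 4.62. Mylpf, the regulatory light chain of fast myosin, measured 9.16, 2.33 and 5.86 in tumors 23, 24 and 25, against 2.34, 2.44 and 2.11 in K8wt cells. It was at least 41.7-fold higher in tumor 23, and tumor 24 lay inside the K8wt range. Acta1, skeletal muscle actin and the main protein of the thin filament, measured 11.07, 5.69 and 8.61 in tumors 23, 24 and 25, against 5.02, 4.77 and 5.32 in K8wt cells. Acta1 lay over the mark on every array, and its differences to the K8wt mean were 6.04, 0.65 and 3.57 in tumors 23, 24 and 25. For Acta1 all 3 tumors lay over all 3 K8wt arrays, tumor 24 by little.

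The promoters of these genes are shown because these 3 genes, whose differences of RMA values were the largest of the members in tumor 25, were high together. Myl2, which was not high in any tumor, is shown as a contrast. Its difference to the K8wt mean in tumor 23 was -0.14, and its values were near or under the mark on every array. Each is the 250 bases before the first listed start (RefSeq, GRCm38.p6), 5′ to 3′ on the gene's strand, and capitals mark CAGCTG, the E-box letters that proteins of the MyoD family are known to bind. They lie at chr7:126463074-126463323 on the minus strand for Atp2a1, chr7:127211358-127211607 on the plus strand for Mylpf, chr8:123894776-123895025 on the minus strand for Acta1 and chr5:122092474-122092723 on the plus strand for Myl2.
Atp2a1: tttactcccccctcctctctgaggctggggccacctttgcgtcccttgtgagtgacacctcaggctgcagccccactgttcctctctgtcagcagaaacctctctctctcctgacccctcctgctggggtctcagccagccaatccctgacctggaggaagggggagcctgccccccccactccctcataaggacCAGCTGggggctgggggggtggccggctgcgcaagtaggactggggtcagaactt
Mylpf: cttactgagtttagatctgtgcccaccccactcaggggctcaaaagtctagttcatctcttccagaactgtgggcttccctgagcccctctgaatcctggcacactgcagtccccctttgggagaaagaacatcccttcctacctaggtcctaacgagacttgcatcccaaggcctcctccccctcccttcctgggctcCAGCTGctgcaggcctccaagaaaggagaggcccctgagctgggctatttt
Acta1: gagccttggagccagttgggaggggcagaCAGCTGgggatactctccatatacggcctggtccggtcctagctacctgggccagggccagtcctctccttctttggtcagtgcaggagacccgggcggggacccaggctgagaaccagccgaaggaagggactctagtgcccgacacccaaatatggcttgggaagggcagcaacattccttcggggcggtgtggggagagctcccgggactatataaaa
Myl2: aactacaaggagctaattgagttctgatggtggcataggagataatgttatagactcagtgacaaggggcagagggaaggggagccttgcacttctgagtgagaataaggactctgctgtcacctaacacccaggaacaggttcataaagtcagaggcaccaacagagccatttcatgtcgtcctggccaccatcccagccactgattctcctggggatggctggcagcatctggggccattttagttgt
In these windows CAGCTG began 55 bases before the start of Atp2a1, 51 before that of Mylpf and 221 before that of Acta1, and the Myl2 window had none. RefSeq promoters were matched for 29 of the 38 members. CAGCTG, which reads the same on both strands, was in 13 of the 29 (44.8%) and in 12.8% of all 27025 promoter windows of this length. It was in 5 of 10 fast fibre genes, 2 of 7 slow fibre genes and 6 of 12 others. The 4 windows shown do not stand for the set. By difference to the K8wt mean in tumor 23, Des (5.76) and Myh4 (5.29) had CAGCTG, while Xirp2 (5.93), Mybpc2 (5.67) and Ryr1 (4.53) had none. Among smaller differences, Myl1 (1.33) and Tnni1 (1.48) had it and Myh7 (0.20) did not. The wider E-box CANNTG, of which CAGCTG is a case, was in 24 of the 29 (82.8%) and in 66% of all. The MEF2 motif, searched on both strands, was in 6 (20.7%) and in 1.73% of all, the CArG box in 3 (10.3%) and in 1.4%, and TATAAA in 5 (17.2%) and in 13%. These are matches of letters in a fixed window and show neither binding nor a cause.

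Thick filament genes split by isoform. Of the 10 myosin and myosin-binding genes, 6 lay above the K8wt range in tumor 23, 4 in tumor 25 and none in tumor 24. Myh4, the heavy chain of the fastest (IIb) fibres, measured 8.25, 3.05 and 5.62 in tumors 23, 24 and 25, against 2.98, 3.26 and 2.62 in K8wt cells. Myh1, the heavy chain of IIx fibres, measured 6.37, 2.30 and 3.57 in tumors 23, 24 and 25, against 2.38, 2.58 and 2.39 in K8wt cells. Tumors 23 and 25 were thus over all K8wt arrays for both, and tumor 24 was not. Myh2, the heavy chain of IIa fibres, measured 4.32, 3.41 and 3.28 in tumors 23, 24 and 25, against 3.72, 3.15 and 3.22 in K8wt cells, and Myh7, the slow and cardiac heavy chain, measured 3.43, 3.01 and 3.66, against 3.31, 3.72 and 2.63. Tumor 23 was the only array to stand over the K8wt range for Myh2, by under 1, and no tumor did so for Myh7. The differences to the K8wt mean in tumor 23 were 5.29 for Myh4, 3.92 for Myh1, 0.96 for Myh2 and 0.20 for Myh7. Along the chromosome Myh2, Myh1 and Myh4 stand next to each other, between Myh3 and Myh8, the embryonic and perinatal heavy chains. Myh3 and Myh8 lay under the mark on all 6 arrays, with 2.30 and 2.79 in tumor 23. The fast heavy chains are near copies of each other, and how far their probes tell them apart is uncertain.

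Mybpc2, Myl2 and Myl3 followed the same split by isoform, whereas the fast light chain gene Myl1 differed from its K8wt mean by 1.33 in tumor 23 and only 0.06 in tumor 25. Mybpc2, the fast myosin-binding protein C, measured 8.71, 3.12 and 4.55 in tumors 23, 24 and 25, against 2.48, 3.30 and 3.37 in K8wt cells. Mybpc1, found in slow and fast fibres, measured 7.21, 2.43 and 4.53 in tumors 23, 24 and 25, against 2.89, 3.30 and 2.91 in K8wt cells. Tumors 23 and 25 lay over the K8wt range for both, with tumor 24 inside it for Mybpc2 and below it for Mybpc1. Myl1, the essential light chain of fast myosin, was at 4.91, 3.09 and 3.64 in tumors 23, 24 and 25, against 3.64, 3.60 and 3.49 in K8wt cells, so that tumor 23 lay over the K8wt range and tumor 24 below it. Myl3, the slow and ventricular essential light chain, was at 4.16 in tumor 23 and within 3.15 to 3.63 on the other arrays. Myl2, the slow and ventricular regulatory light chain, was at 3.28, 2.94 and 3.20 in tumors 23, 24 and 25, against 3.44, 3.49 and 3.32 in K8wt cells. For Myl2 all tumors lay below all K8wt arrays, and the K8wt values were under the mark.

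All 8 thin filament genes lay above the K8wt range in tumor 23, and 5 did so in tumor 25. Acta1 is described above, and the fast troponins and nebulin were high as well. Tnni2, the fast inhibitory troponin, measured 10.37, 5.40 and 6.85 in tumors 23, 24 and 25, against 4.54, 4.18 and 4.44 in K8wt cells. Tumor 24 lay over the K8wt arrays for Tnni2, by 1.02 to their mean, the largest such difference among members in tumor 24. Tnnt3, the fast tropomyosin-binding troponin, measured 9.37, 3.56 and 6.06 in tumors 23, 24 and 25, against 3.90, 3.98 and 3.90 in K8wt cells. Tnnc2, the fast calcium-binding troponin, measured 9.93, 5.18 and 6.73 in tumors 23, 24 and 25, against 5.23, 5.46 and 5.41 in K8wt cells. For both, tumors 23 and 25 were high and tumor 24 lay below the K8wt arrays.

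The slow troponins showed smaller differences, and in tumor 25 none passed the 1-unit rule. Tnnc1, the troponin C of slow fibres and heart, measured 9.43, 5.14 and 6.29 in tumors 23, 24 and 25, against 5.90, 5.70 and 6.49 in K8wt cells. Tnnt1, slow troponin T, measured 6.30, 3.44 and 4.49 in tumors 23, 24 and 25, against 4.30, 4.32 and 4.59 in K8wt cells. For both genes tumor 25 lay inside the K8wt range and tumor 24 below it. Tnni1, slow troponin I, measured 5.31, 3.67 and 5.03 in tumors 23, 24 and 25, against 3.61, 4.14 and 3.74 in K8wt cells, so that tumors 23 and 25 lay close together and over the K8wt arrays. Nebulin (Neb), the ruler of thin filament length, measured 8.005, 3.25 and 4.74 in tumors 23, 24 and 25, against 2.93, 2.92 and 2.96 in K8wt cells. The tumors' order was again 23, 25 and 24, with tumor 24 over the K8wt arrays by less than 1 and under its own mark.

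Of the 10 genes of the Z-disc, titin and desmin scaffold, all 10 lay above the K8wt range in tumor 23 and 3 in tumor 25. Actn3, the alpha-actinin of fast fibre Z-discs, measured 9.35, 3.20 and 5.89 in tumors 23, 24 and 25, against 3.04, 3.50 and 3.09 in K8wt cells. Actn2, the alpha-actinin of all fibres and heart, measured 6.45, 2.34 and 3.44 in tumors 23, 24 and 25, against 2.85, 3.29 and 3.02 in K8wt cells. Tumor 25 thus stood well over the K8wt arrays for Actn3 and by less than 1 for Actn2. Titin (Ttn), the giant spring protein between Z-disc and thick filament, measured 6.70, 3.26 and 4.39 in tumors 23, 24 and 25, against 2.94, 2.99 and 2.99 in K8wt cells. Xirp2, an actin-binding repeat protein of striated muscle, measured 8.18, 2.26 and 4.13 in tumors 23, 24 and 25, against 2.25, 2.08 and 2.43 in K8wt cells. Both followed the order of the set, and tumor 24 lay inside the K8wt range for Xirp2.

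Desmin and sarcolipin were high in tumor 23 and not in tumor 25. Des, the intermediate filament of muscle, measured 9.96, 3.97 and 4.92 in tumors 23, 24 and 25, against 4.56, 3.99 and 4.05 in K8wt cells. Sln, a small membrane protein that inhibits the calcium pump, measured 7.56, 1.74 and 2.26 in tumors 23, 24 and 25, against 1.92, 1.80 and 1.69 in K8wt cells. Tumor 23 exceeded tumor 25 by 5.04 for Des and, since Sln lay under the mark in tumor 25, by at least 4.15 for Sln, and tumor 25 stayed within 1 of the highest K8wt array for both. Nrap, a nebulin-related anchoring protein, measured 7.17, 3.18 and 3.28 in tumors 23, 24 and 25, against 3.16, 3.76 and 3.21 in K8wt cells, so that tumor 23 alone was high. The telethonin gene Tcap, whose protein caps titin, measured 8.36, 4.51 and 5.58 in tumors 23, 24 and 25, against 5.27, 4.93 and 5.29 in K8wt cells. The calcineurin-binding Z-disc genes Myoz1 (fast) and Myoz2 (slow) and the small muscle protein gene Smpx differed from their K8wt means by 2.74, 2.36 and 2.33 in tumor 23. Myoz1 differed by 0.79 in tumor 24 and 0.80 in tumor 25, and Myoz2 and Smpx stayed within 0.4 of their K8wt means in those tumors.

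Of the 8 calcium-handling genes, 7 lay above the K8wt range in tumor 23, and Atp2a1 and Ryr1 did so in tumor 25. Ryr1, the calcium release channel of the reticulum, measured 7.77, 3.32 and 4.57 in tumors 23, 24 and 25, against 3.04, 3.51 and 3.18 in K8wt cells. Casq1, the calcium store protein of fast fibres, measured 7.31, 2.94 and 3.71 in tumors 23, 24 and 25, against 2.95, 2.93 and 3.12 in K8wt cells. Tumor 24 lay inside the K8wt range for both. Trdn, triadin, which ties the store protein to the channel, measured 6.72, 2.47 and 3.75 in tumors 23, 24 and 25, against 3.51, 3.29 and 2.79 in K8wt cells. Cacna1s, the voltage sensor of the transverse tubule, measured 6.64, 3.54 and 3.80 in tumors 23, 24 and 25, against 3.55, 3.54 and 3.64 in K8wt cells. Tumor 25 exceeded the highest K8wt array by under 1 for both. Tumor 24 lay below all K8wt arrays for Trdn and was level with the lowest of them for Cacna1s. The K8wt values of both genes were under the mark. Pvalb, the cytosolic calcium buffer of fast fibres, was 2.12 over its K8wt mean in tumor 23 and 0.23 in tumor 25. Cacng1, a further subunit of the voltage sensor channel, was just outside the rule in tumor 23, at 3.89 against a K8wt range of 2.83 to 2.97.

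The other genes concern energy and oxygen. Ckm, muscle creatine kinase, measured 8.14, 2.996 and 5.01 in tumors 23, 24 and 25, against 3.05, 3.21 and 2.73 in K8wt cells. Mb, myoglobin, measured 7.04, 4.01 and 5.84 in tumors 23, 24 and 25, against 4.50, 4.71 and 5.03 in K8wt cells. Tumor 23 passed the 1-unit rule for both and tumor 25 for Ckm alone, while tumor 24 lay below the K8wt arrays for Mb.

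Ckm, Ryr1 and Xirp2 had a dimmer probe set as well, and none of these lay above the K8wt range by 1 unit in any tumor. The brighter set was chosen by its mean on all 6 arrays, so the high values of tumor 23 entered that choice. The dimmer Ckm probe set measured 3.88, 2.75 and 3.05 in tumors 23, 24 and 25, against 3.27, 3.37 and 3.08 in K8wt cells, so that tumor 23 was highest by under 1 unit. The dimmer Ryr1 probe set measured 3.64, 3.70 and 3.69 in tumors, against 3.79, 4.23 and 4.20 in K8wt cells, and the dimmer Xirp2 probe set stayed within 1.89 to 2.25 on all 6 arrays. In K8wt cells the sets used measured 3.05, 3.21 and 2.73 for Ckm and 3.04, 3.51 and 3.18 for Ryr1. On the K8wt arrays the sets called dimmer were thus the brighter for both genes. A probe set naming both Des and Gm15179 was left out and lay within 2.94 to 3.50 on all arrays.

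Genes of fast fibres differed more from K8wt cells than genes of slow fibres, in tumors 23 and 25. The lists held 14 fast fibre genes, 7 slow fibre genes and 17 genes not tied to a fibre type. The median difference to the K8wt mean over fast fibre genes was 4.93, 0.01 and 1.43 in tumors 23, 24 and 25. Over slow fibre genes it was 1.48, -0.30 and 0.09 in tumors 23, 24 and 25. The fast median minus the slow median thus gave 3.45, 0.31 and 1.34 in tumors 23, 24 and 25. Above the K8wt range in tumor 23 were 13 of 14 fast fibre genes, Myh2 being the other, and 4 of 7 slow fibre genes (Myoz2, Tnnc1, Tnni1 and Tnnt1). In tumor 25 it was 8 of 14 fast fibre genes and none of 7 slow fibre genes. Among genes with no fibre type set the counts were 16 of 17 in tumor 23 and 7 of 17 in tumor 25. These are differences of each gene to its own K8wt mean. They compare 2 lists of different genes whose probes and background differ, and no test was made of them.

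**Figure D2:**
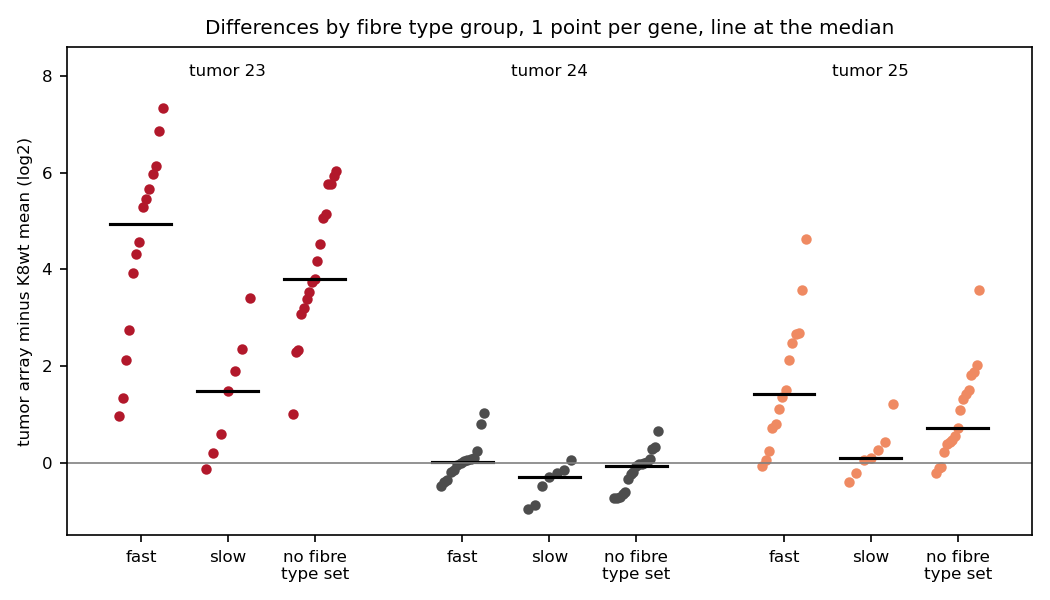
Tumor array minus the mean of the 3 K8wt arrays (log2), 1 point per gene, for 14 fast fibre genes, 7 slow fibre genes and 17 genes with no fibre type set, with a line at each median. In tumor 23 the medians are 4.93, 1.48 and 3.79, in tumor 24 they are near 0, and in tumor 25 they are 1.43, 0.09 and 0.72.

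Tumors 23 and 25 were set against the same K8wt arrays, so their differences to K8wt cells are not independent. Set against each other, tumor 23 exceeded tumor 25 by 2.32 to 4.17 for the 15 genes above the K8wt range in tumor 25, with a median of 3.21. For the 18 genes above that range in tumor 23 and not in tumor 25, the gap ran from 0.28 (Tnni1) to 5.04 (Des), with the mark in place of the tumor 25 value for Myoz2, Nrap, Sln and Smpx, which lay under it. Genes were also ranked by the difference of RMA values as deposited, which for many members is taken against K8wt values under the mark, so that single ranks are not exact. Members filled the top of this ranking in tumor 23: they were 13 of the 20 genes with the largest difference to the K8wt mean, 18 of the top 50 and 23 of the top 100, and they make up 0.171% of all genes. In tumor 25 they were 1 of the top 20 and 3 of the top 100 (Atp2a1, Acta1 and Mylpf), and in tumor 24 none of the top 100.

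**Figure D3:**
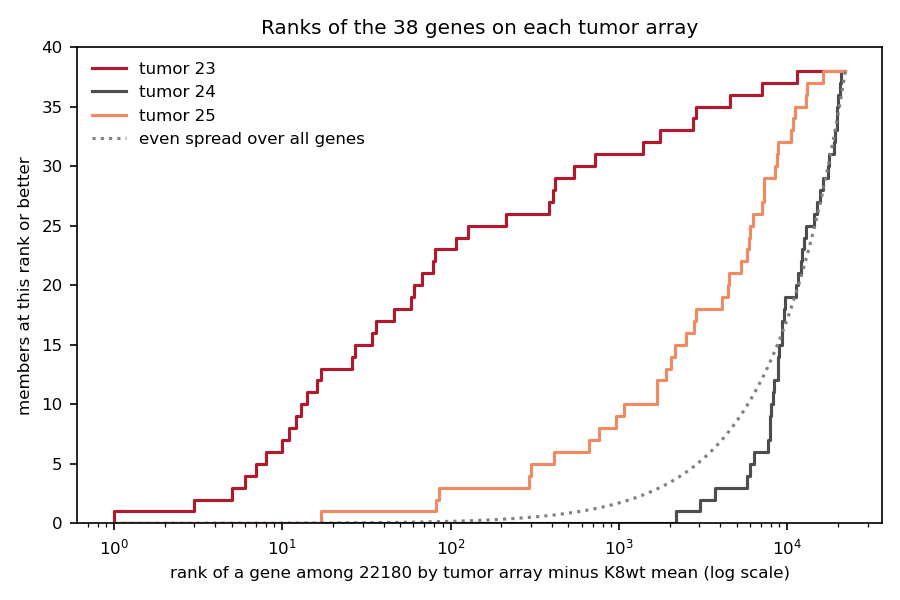
Number of the 38 genes at a given rank or better (vertical) against rank among 22180 genes by tumor array minus K8wt mean (horizontal, log scale), 1 line per tumor, with a dotted line for an even spread over all genes. In tumor 23 the top 100 hold 23 members, in tumor 25 they hold 3, and the line of tumor 24 starts far to the right.

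Over the 3 tumors together no member passed limma's test. Of the 22180 genes, 2.52% were called higher and 1.39% lower in tumors at an adjusted p under 0.05, and 0 of the 38 members were in either direction. At an unadjusted p under 0.05 there were 4 members (Acta1, Tnni2, Atp2a1 and Myoz1), beside 5850 of all genes. Acta1 had the lowest adjusted p of the members, 0.15 in limma, with 8.46 ± 2.70 in tumors and 5.04 ± 0.28 in K8wt cells (SD, n = 3), which differed by 3.42 ± 1.23 (SE). Tnni2 measured 7.54 ± 2.55 in tumors and 4.39 ± 0.19 in K8wt cells (SD, n = 3), which differed by 3.15 ± 1.16 (SE; limma, adjusted p = 0.16). The mean was higher in tumors for 36 of the 38 members and lower for Myl2 (-0.28 ± 0.17, SE) and Myl3 (-0.04 ± 0.29, SE), and Myl3 turned higher with array weights, cyclic loess or a repeated quantile normalization. Over all 22180 genes, the mean was higher in tumors for 9247 and lower for 12933. For 6 members (Acta1, Atp2a1, Myoz1, Neb, Tnni2 and Ttn) all 3 tumors lay over all 3 K8wt arrays, where 14.0% of all genes did so. Without tumor 24, limma called 1200 of the 22180 genes and 5 members: Acta1 (4.80 higher, adjusted p of 0.027), Atp2a1 (5.98, 0.023), Mylpf (5.21, 0.037), Myh4 (3.98, 0.044) and Tnni1 (1.34, 0.041). That fit drops the tumor in which no member lay above the K8wt range and keeps tumors 23 and 25, where members did. Its calls are thus not separate support for the pattern. With any other array left out, no member was called. Centring the arrays on housekeeping genes called 7523 of the 22180 genes, 548 of them higher, and 4 members, with Acta1 (2.80), Atp2a1 (3.45) and Tnni2 (2.53) higher and Myl2 (-0.90) lower.

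Each of 3 further muscle lists had more genes above the K8wt range in tumor 23 than in the other tumors. Of all genes, 7.15%, 5.81% and 8.99% lay above it in tumors 23, 24 and 25, the shares to set beside these and later list counts. Some genes of these lists, such as Gys1, Ppp1r3c and Asph, were highest in tumor 25. Of 26 further sarcomere genes, 16 lay above the K8wt range in tumor 23, 2 in tumor 24 and 1 in tumor 25, a share under that of all genes in tumor 25, and limma called none. Among them Ankrd23, a stress-responsive ankyrin repeat gene of the titin scaffold, measured 10.61, 6.15 and 6.18 in tumors 23, 24 and 25, against 3.84, 4.10 and 3.22 in K8wt cells. Unlike Atp2a1 and Mylpf, Ankrd23 lay above the K8wt range in tumor 24 too. Of 20 genes of muscle energy metabolism, 10 lay above the range in tumor 23, 1 in tumor 24 and 6 in tumor 25, and limma called none. Pygm, muscle glycogen phosphorylase, measured 8.49, 3.35 and 5.09 in tumors 23, 24 and 25, against 3.20, 3.34 and 3.35 in K8wt cells. Of 18 genes of excitation and the neuromuscular junction, 8 lay above the range in tumor 23, none in tumor 24 and 2 in tumor 25. Asph, which encodes junctional proteins of the reticulum and an enzyme made in many tissues, was the only one called, 1.36 ± 0.27 (SE) higher (limma, adjusted p = 0.049); no gene of the list was called higher with the mean of probe sets, any other normalization, a trended prior, or any array but tumor 24 left out.

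Genes of muscle cell identity behaved less uniformly than the contractile genes. Of 12 myogenic factors, 2 (Myf6 and Mef2c) lay above the K8wt range in tumor 23, and none did in tumors 24 and 25. Myf6, the MyoD family factor of mature fibres, measured 6.74, 2.79 and 3.42 in tumors 23, 24 and 25, against 3.54, 3.84 and 3.51 in K8wt cells. Mef2c, a partner of that family, measured 6.52, 4.14 and 4.38 in tumors 23, 24 and 25, against 3.34, 3.49 and 3.51 in K8wt cells. Myog, myogenin, was at 5.24, 3.67 and 3.39 in tumors 23, 24 and 25, against 4.07, 4.30 and 4.23 in K8wt cells, and Myod1 was at 3.75, 2.91 and 3.23, against 4.05, 3.83 and 3.68. Tumor 23 was highest for Myf6, Mef2c and Myog, and lay among the K8wt values for Myod1. Pax7, the satellite cell factor, fell by 0.92 ± 0.18 (SE) in tumors (limma, adjusted p = 0.048), and it was not called when any one array was left out. It measured 3.29, 3.35 and 3.42 in tumors 23, 24 and 25, against 4.14, 4.16 and 4.54 in K8wt cells, all near the mark. Of 6 developmental muscle genes only Ncam1, an adhesion gene that nerve and other cells also express, was called, 3.29 ± 0.35 (SE) higher (limma, adjusted p = 0.014), and not without K8wt replicate 2 or 4. It measured 6.17, 6.97 and 7.41 in tumors 23, 24 and 25, against 3.90, 3.27 and 3.51 in K8wt cells. Its highest value was in tumor 25 and not in tumor 23.

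**Figure D4:**
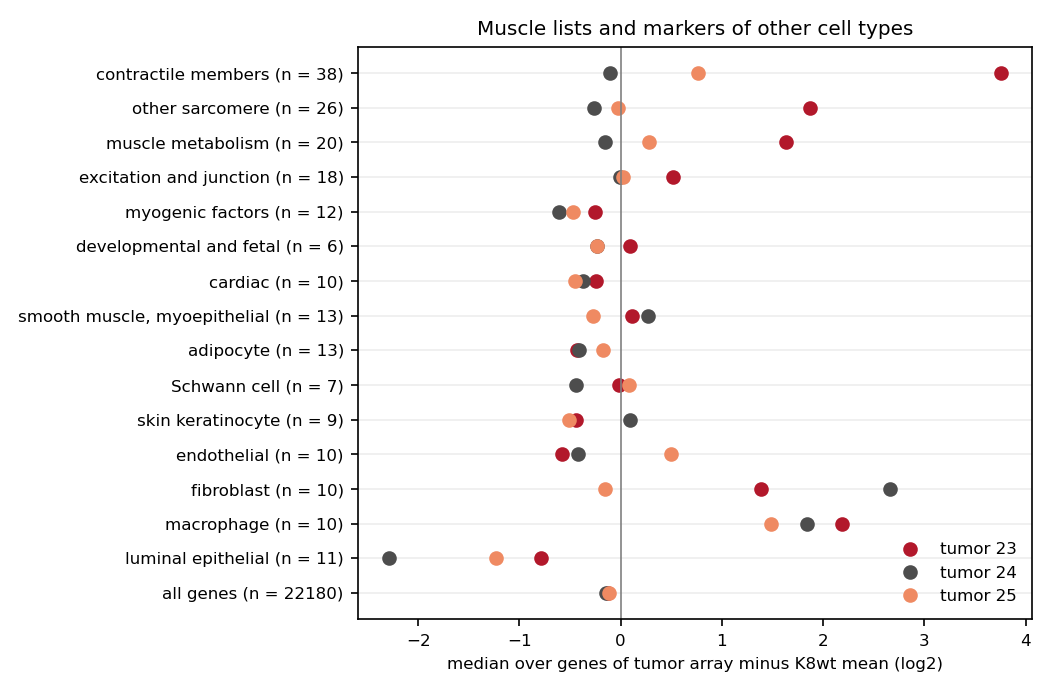
Median over the genes of each list of tumor array minus K8wt mean (log2), 1 point per tumor, for the 38 contractile genes, further muscle lists, markers of other cell types and all 22180 genes. The contractile genes stand at 3.76 in tumor 23 and 0.76 in tumor 25, and the cardiac, smooth muscle and adipocyte lists lie between -0.46 and 0.27.

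Markers of other tissues were read beside the contractile genes. Of 10 cardiac genes none lay above the K8wt range in any tumor, and Myh6 and Nppa, genes of heart muscle, were under the mark on all 6 arrays. Of 13 smooth muscle and myoepithelial genes, none did so in tumor 23, 3 in tumor 24 and 2 in tumor 25, and Acta2, smooth muscle actin, was at 7.32, 7.79 and 6.35 in tumors 23, 24 and 25, against 7.92, 7.04 and 7.77 in K8wt cells. Myh11, smooth muscle myosin, was lower in all 3 tumors than on any K8wt array and fell by 1.40 ± 0.22 (SE; limma, adjusted p = 0.030), and it was not called when any array but tumor 24 was left out. Of 13 adipocyte genes, 1 (Car3, which skeletal muscle is also known to express) lay above the range in tumors 23 and 25, and the fat hormone Adipoq was under the mark on all arrays. Lipe, a lipase of fat cells, fell by 2.15 ± 0.26 (SE) in tumors (limma, adjusted p = 0.017), and the fatty acid carrier Fabp4 differed from its K8wt mean by -1.85, -2.99 and -3.76 in tumors 23, 24 and 25 without passing the test. Car3 measured 8.66, 2.87 and 6.38 in tumors 23, 24 and 25, against 3.54, 4.17 and 3.39 in K8wt cells, the order of the contractile genes. The means over the 38 contractile genes were 7.15, 3.30 and 4.55 in tumors 23, 24 and 25, against 3.38 to 3.51 in K8wt cells. Of 10 macrophage genes, 8, 8 and 6 lay above the range in tumors 23, 24 and 25, with list means of 6.67, 6.39 and 5.95, against 3.95 to 4.50 in K8wt cells. Of 10 fibroblast genes, 3, 6 and 3 did so, with list means of 6.64, 7.29 and 6.11, against 5.39 to 5.86 in K8wt cells. The macrophage genes were thus high in tumor 24 as well, where the contractile genes were not. In Schwann cell (7), skin keratinocyte (9) and endothelial (10) lists at most 1 gene each lay above the range in any tumor, except 2 skin genes (Ivl and Krtdap) in tumor 24, and of 13 housekeeping genes 3, 0 and 4 did so in tumors 23, 24 and 25. Of 11 luminal epithelial genes none lay above the range, and their list means were 7.45, 6.34 and 6.94 in tumors 23, 24 and 25, against 8.17 to 8.76 in K8wt cells. The part of muscle tissue in these RNAs was not tested, and more muscle fibres in a tumor and more of these transcripts per cell cannot be told apart in bulk RNA.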

How the data were processed

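Total RNA of 6 samples was amplified with a NuGEN Ovation kit and labelled with biotin, per the labels. The authors deposited log2 expression values per probe set, made with RMA and oligo per the submitters' processing notes, which give no versions. No scanner files were used, so detection calls, scan dates and batches were not examined. The number of arrays limits the precision. Of 41345 probe sets, 23521 named 1 gene in the platform annotation, 1814 several and 16010 none. By Entrez identifier 23328 were matched to RefSeq (GRCm38.p6); the other 193 kept their symbol. The files name no build for probes, so gene positions are not given. Per gene, the brightest probe set by its mean on the 6 arrays was used. Groups were compared in R 4.3.3 with lmFit and eBayes of limma 3.58.1, two-sided, with Benjamini-Hochberg adjustment over 22180 genes, no covariates and no filter on dim genes; every adjusted p is from this fit. The step was tested on simulated data. Members, lists, thresholds and the background mark were chosen with earlier results of these data known. Named genes were all members, the 10 largest differences outside them in tumors 23 and 25, the largest 1 or 3 of each list, defining markers and myogenic factors above the mark; those not needed beside a result are not printed.  Alternatives were filters on dim genes, the mean of probe sets, other normalizations, priors, array weights, other thresholds and leaving out each array.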

Additional observations from a re-analysis of the deposited data

How the results depend on the processing

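No paired analysis was possible because the groups share no replicate numbers in the labels. The 867 genes called by limma became 7523 (548 higher) with the arrays centred on housekeeping genes and 1324 with array weights, and 72 to 1200 with an array left out, lowest without K8wt replicate 4 and highest without tumor 24. Under that centring the median over all genes was -0.74 (-0.12 before). Members called were 0, and 4 with the centring and 0 to 5 with an array left out (5 without tumor 24). The count above the K8wt range in tumor 23 stayed at 29 to 36 under every alternative. In tumor 24 it was 6 at a threshold of 0 log2 units and 0 to 1 with a K8wt array left out. In tumor 25 it was 15 in the main setting, 12 with the mean of probe sets, 7 with the centring, 27 at a threshold of 0 and 7 at a threshold of 2. The member median in tumor 23 was 3.40 with the mean of probe sets, 3.01 with the centring, 3.92 after cyclic loess and 3.70 to 3.86 with a K8wt array left out. In tumor 24 it was -0.023 after quantile normalization again and -0.37 with the centring. In tumor 25 it was 0.99, -0.094 (turned) and 0.97 under the quantile step, the centring and loess, and 0.72 to 0.87 with a K8wt array left out. Fast minus slow in tumor 23 was 3.38 after the quantile step, 3.37 after loess, 3.60 with members above the mark in tumors 23 and 25, a choice by level in those tumors, and 3.40 to 3.53 with a K8wt array left out. In tumor 24 it was 0.22 after loess, 0.54 with members above the mark and 0.27 to 0.44 with a K8wt array left out, and in tumor 25 it was 1.42, 1.15 and 1.17 to 1.42. Single members that turned were Cacng1 (-0.37), Myh2 (-0.31), Myh7 (-0.48), Myl1 (-0.32) and Tnnt1 (-0.28) with the centring, and Myl3 after the quantile step (0.093), after loess (0.19) and with array weights (0.083). With an array left out, members that turned spanned -0.16 to 1.89 (Actn2), -0.12 to 0.48 (Cacng1), -0.018 to 0.50 (Myh2), -0.15 to 0.39 (Myh7), -0.21 to 0.70 (Myl1), -0.36 to 0.15 (Myl3), -0.15 to 1.85 (Nrap), -0.086 to 1.18 (Pvalb), -0.22 to 1.11 (Smpx), -0.12 to 1.81 (Tcap), -0.32 to 1.83 (Tnnc1), -0.44 to 1.00 (Tnnt1) and -0.089 to 2.04 (Trdn); all but Myh7 were lowest without tumor 23. The cause of these shifts was not tested.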

Other observations

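The probe sets of the precursors of 5 microRNAs known from muscle were also read, chosen after the data were seen, and their values did not show the pattern of the contractile genes. Mir206, Mir133b, Mir1a-1, Mir133a-2 and Mir499 measured 1.47, 3.69, 1.80, 2.10 and 1.81 in tumor 23, with differences to the K8wt mean of -0.28 to 0.10. All but Mir133b lay under the background mark on all 6 arrays, and Mir133b lay near it. Probe sets at this level may not detect the precursors, so the missing pattern cannot be read as a result about them. Outside the muscle lists, the largest differences to the K8wt mean in tumor 23 included Saa3, an acute-phase serum amyloid gene, with 9.99, 4.71 and 4.94 in tumors 23, 24 and 25, against 4.32, 3.40 and 3.11 in K8wt cells. Saa3 was high in tumor 23 alone. Nkd2, an inhibitor of Wnt signalling, measured 9.54, 9.26 and 9.68 in tumors 23, 24 and 25, against 4.11, 3.78 and 3.37 in K8wt cells, and its tumors lay close together.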
